A study of Mus musculus with 6 samples.

Results

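Complement genes were followed in mouse hepatic stellate cells, which are liver pericytes that store vitamin A, after exposure to obeticholic acid (OCA), a semisynthetic bile acid and agonist of the nuclear receptor FXR. They were chosen by symbol in the deposited table of exon counts, which makes 9 of its 24940 genes: C3, C4b, C1ra, C1s1, Cfb, Serping1, Cd55, Cd59a and C3ar1. The primary cells, from C57BL/6JBomTac females, were in culture when, 2 days after isolation, OCA at 10 µM or an equal volume of its vehicle, dimethyl sulfoxide (DMSO), was added to the medium for 6 h. No genetic change is named for either group, and both share the isolation and the culture. Polyadenylated RNA was sequenced from 3 OCA and 3 DMSO samples, called A, B and C in each group. The labels do not say whether these are separate animals or separate wells, so the p-values measure the spread between these samples, which may be technical.

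Complement is a cascade of plasma proteases. In the classical pathway the recognition molecule C1q carries the proteases C1r and C1s, which cleave C4 and C2 into a convertase that splits C3. In the alternative pathway factor B forms the convertase, and in the lectin pathway mannose-binding lectin, ficolins and collectins do the recognising with MASP proteases. Inhibitors in plasma and on membranes hold each step in check, and hepatocytes are the main source of the plasma proteins.

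Of the 9 genes, 6 had enough counts for the test and 1 of them, the C1 inhibitor gene Serping1, fell with OCA. It fell by 27.2% (log2 fold change -0.46). The other 5 tested genes lay at log2 fold changes between -0.56 and -0.05 and did not pass an adjusted p of 0.05 in edgeR's quasi-likelihood test. Among all 12687 genes tested, 5.20% passed, with 3.03% lower and 2.18% higher under OCA. The fitted change was below 0 in 6 of the 6 genes, against 49.8% of all genes tested, and their median was -0.46 against 0.00 for all. C3, C3ar1 and Cd55 had 28, 24 and 7.5 counts in all 6 libraries together and were too rare for the test. These figures describe the genes that were abundant enough, not all 9. The 9 genes were chosen with earlier results of these data known, so the shared direction is a description and not a test. Cfb (-0.15, standard error 0.23) and Cd59a (-0.05, standard error 0.24) lay within their standard errors of 0.

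The libraries held between 12260882 and 16336240 counts, so that 3 counts equal 0.181 to 0.251 CPM (counts scaled to a common library size) in a library. A mean of 3 counts is about the upper 95% limit for an observed 0, for counting error only. Of 4 genes read as a check of the FXR agonist, 3 rose and 1 fell. Osgin1, which encodes an oxidative stress-induced growth inhibitor, rose from 79.9 ± 5.76 to 221 ± 14.9 CPM (SD, n = 3 each), and Abcb11, the bile salt export pump, went from 6.5 to 190.5 summed counts. The transcript of the receptor itself, Nr1h4, fell from 84.0 ± 2.39 to 65.8 ± 2.62 CPM, and its partner Rxra rose from 367 ± 15.6 to 433 ± 8.88 CPM (adjusted p = 0.00535 and 0.0487, edgeR's quasi-likelihood test). The 10 stellate markers, led by the intermediate filament gene Nes, summed to 2899 to 3129 CPM in DMSO and to 2588 to 3013 CPM in OCA. Among them Reln, the gene of the secreted glycoprotein reelin, fell and the transcription factor gene Lhx2 rose. One library of each group stood apart in the genes that fell. OCA B was the highest of the 3 OCA libraries in 77.1% of the 384 genes that fell, against 33.3% of all tested genes. DMSO A was the highest DMSO library in 68% of the 384, against 35.9% of all tested genes. Values of complement genes without OCA B are given wherever a call changed.

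Markers of the other liver cells, several of which make complement, were scarce. The 10 macrophage markers summed to 6.36 to 13.5 CPM in DMSO and to 8.64 to 8.74 CPM in OCA, led by Cd68, with Fcgr1 at 0 and the Kupffer cell lectin Clec4f at 7 counts over all libraries. The 8 hepatocyte markers, led by Alb, summed to 2.97 to 4.44 CPM and to 3.37 to 6.98 CPM, and none was at 0 in all libraries. The 6 endothelial markers, led by Kdr, reached 0.604 to 1.46 CPM and 1.06 to 1.95 CPM. The 4 mesothelial markers, led by Wt1, reached 0.724 to 1.82 CPM and 0.942 to 1.42 CPM. The 4 lymphocyte markers did not pass 0.0651 CPM in DMSO or 0.192 CPM in OCA, with Ms4a1 and Nkg7 at 0. Of the 4 cholangiocyte markers Krt7 was at 0, and Sox9 carried the sum of 2.89 to 3.77 CPM in DMSO and 6.83 to 10.9 CPM in OCA. The sums of the 2 treatments overlapped for all of these lists and the stellate list, except for the cholangiocyte markers. In that list Sox9 rose (log2 fold change 1.60, adjusted p = 0.00322, edgeR's quasi-likelihood test). Krt19, the other gene of the list that could be tested, did not pass (0.16, adjusted p = 0.922). The part of these cells in the complement counts was not tested.

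C1ra and C1s1 form a gene pair on opposite strands, with 6903 bases between their 3′ ends and their start sites at the outer ends. The upstream sequences of this pair and of C3, in the human genome a described target of FXR, are shown. C3 was the one of the 9 whose OCA libraries all lay above the DMSO libraries, as was so for 11.6% of all tested genes. It held 28 counts in all, with 6 each in OCA A and DMSO A, and was too rare for the test. Whether FXR acts on C3 in these cells was not tested. Each sequence is the RefSeq window of build GRCm38.p6 from 250 bases before to 50 bases after the start site. It is read 5′ to 3′ on the gene's strand, with the start site as position 0. Capitals mark matches to the motifs named after them.
C1ra, chr6:124512371-124512670, plus strand: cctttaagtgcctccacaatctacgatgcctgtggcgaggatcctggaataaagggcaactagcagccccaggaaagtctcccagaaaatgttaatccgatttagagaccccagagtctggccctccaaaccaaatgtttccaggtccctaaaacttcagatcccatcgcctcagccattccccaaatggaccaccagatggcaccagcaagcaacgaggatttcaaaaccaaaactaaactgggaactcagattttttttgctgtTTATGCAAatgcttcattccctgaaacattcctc
C1s1, chr6:124542310-124542609, minus strand: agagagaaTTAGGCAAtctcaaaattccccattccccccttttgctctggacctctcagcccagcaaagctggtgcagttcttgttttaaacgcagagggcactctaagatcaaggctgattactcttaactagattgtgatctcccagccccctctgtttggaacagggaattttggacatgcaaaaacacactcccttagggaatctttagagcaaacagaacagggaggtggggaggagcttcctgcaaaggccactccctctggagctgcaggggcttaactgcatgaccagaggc
C3, chr17:57228087-57228386, minus strand: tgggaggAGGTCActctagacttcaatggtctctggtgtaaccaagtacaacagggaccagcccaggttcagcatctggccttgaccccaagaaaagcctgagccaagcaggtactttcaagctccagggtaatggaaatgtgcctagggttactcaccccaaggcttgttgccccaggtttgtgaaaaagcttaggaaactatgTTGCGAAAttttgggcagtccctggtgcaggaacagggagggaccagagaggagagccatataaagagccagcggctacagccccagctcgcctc
In C1ra the capitals mark a C/EBP match at positions 16 to 23. In C1s1 they mark a C/EBP match at positions -242 to -235, which the window of its other annotated start does not hold. In C3 they mark a single nuclear receptor site (AGGTCA) at positions -243 to -238 and a C/EBP match at positions -45 to -38.

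The motifs were searched on both strands of the windows of 6 of the 9 genes, and C4b, Cfb and Serping1 had no window in the table used. The inverted repeat bound by FXR, written as AGGNCA, any base and TGNCCT, was in 0 of the 6 genes, in 0 of the 42 complement genes with a window and in 0.0884% of all 32817 windows. The single nuclear receptor site AGGTCA, which is part of the repeat where the first N is T, was in C3 alone of the 6, in 10 of the 42 complement genes and in 16.3% of all windows. The C/EBP motif TTGCNNAA was in C1ra, C1s1 and C3, in 9 of the 42 and in 10.8% of all windows. The NF-kB motif GGG, any 2 bases and TTTCC, was in C3ar1 and in 1.63% of all windows, and the interferon element core, TTTC, any 2 bases and TTTC, was in Cd59a and in 3.43%. A gene counts if any of its windows holds the motif, while the percentages count single windows. Counts of genes and percentages of windows are therefore not like measures. These are matches of letters and not measured binding sites. The 3 motifs last named belong to factors that induce complement genes in inflammation, and their presence in a window says nothing about their use in these cells.

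C1 inhibitor, the product of Serping1 (NM_009776, chr2:84765360-84775429 on the minus strand of mm10), is the serpin that blocks C1r, C1s, MASP proteases and plasma kallikrein. Its level was 49.1, 51.1 and 51.5 CPM in DMSO A, B and C and 31.9, 48.4 and 30.03 CPM in OCA A, B and C. Every OCA library lay below every DMSO library, and OCA B lay just under them while the other two were far lower. The group means were 50.6 ± 1.28 CPM in DMSO and 36.8 ± 10.1 CPM in OCA (SD, n = 3 each), a log2 fold change of -0.46 with a standard error of 0.13 (adjusted p = 0.0436, edgeR's quasi-likelihood test, adjusted over 12687 genes by Benjamini-Hochberg). In bulk RNA fewer cells of a type and less RNA per cell cannot be told apart. OCA A and OCA C stood at 63.1% and 59.4% of the DMSO mean and OCA B at 95.7%. Without OCA B the log2 fold change was -0.71 (adjusted p = 5.82e-06). The call ended when any other library was left out, with adjusted p = 0.207 without OCA A, 0.209 without OCA C and between 0.115 and 0.144 without DMSO A, DMSO B or DMSO C in turn, and under robust estimation (0.125). The direction stayed below 0 in all of these.

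**Figure D1:**
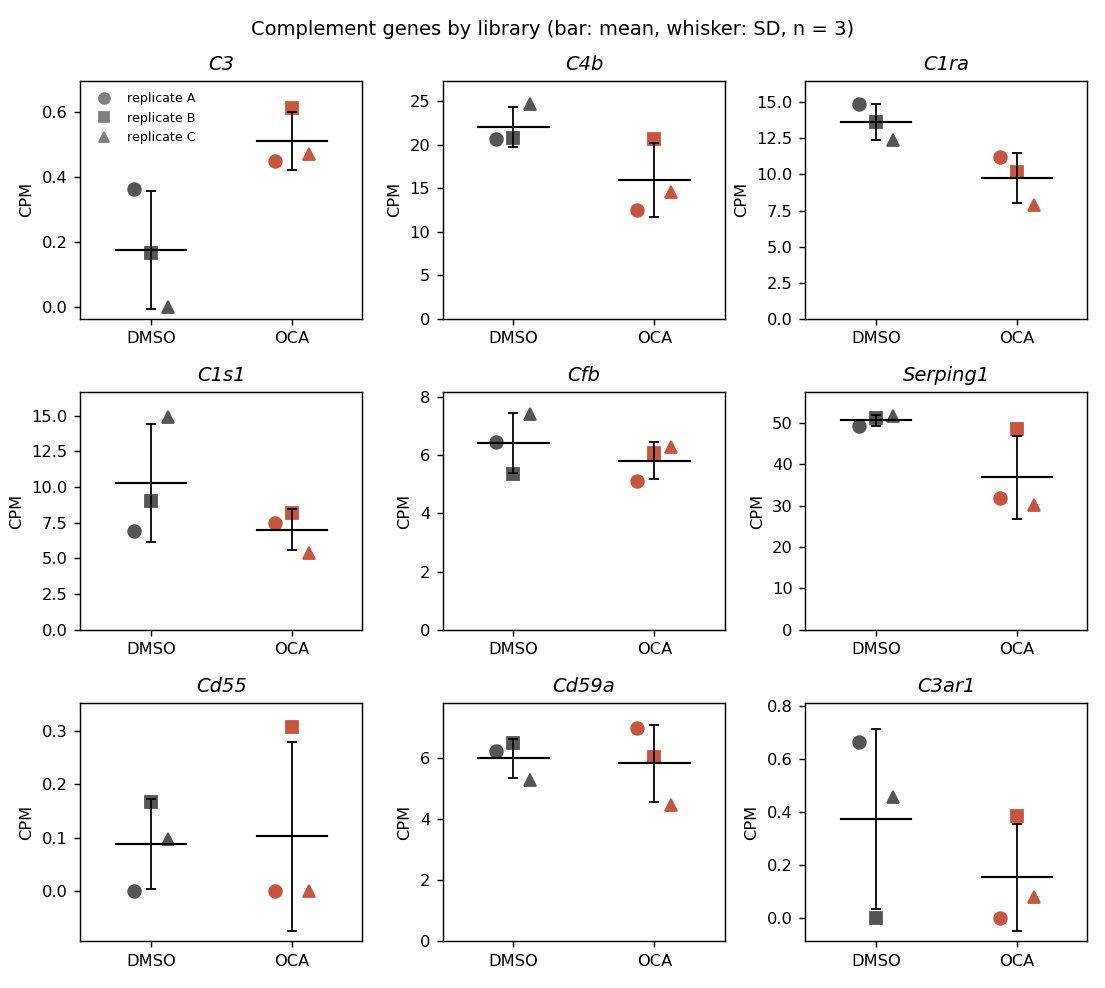
Level of each of the 9 genes in every library, in CPM on TMM-scaled library sizes (vertical axes, separate for each gene), for DMSO (grey) and OCA (red). Symbols give replicates A, B and C, the long bar the mean and the whisker the SD (n = 3). For Serping1 and C1ra all OCA points lie under all DMSO points, and for C3, C3ar1 and Cd55 every point is under 1 CPM.

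C1ra and C1s1 encode the proteases C1r and C1s, the targets of C1 inhibitor. C1ra (NM_023143, chr6:124512621-124523440, plus strand) stood at 14.9, 13.6 and 12.4 CPM in DMSO A, B and C and at 11.2, 10.2 and 7.85 CPM in OCA A, B and C. The groups did not overlap, and here OCA B was not the highest OCA library. The means were 13.6 ± 1.27 and 9.76 ± 1.73 CPM, a log2 fold change of -0.48 with a standard error of 0.17 that did not pass the test (adjusted p = 0.120). Groups that do not overlap were found for 2 of the 6 tested genes, Serping1 and C1ra, and for 23.0% of all tested genes (OCA lower in 11.3%). C1s1 (NM_001097617, chr6:124530344-124542359, minus strand) stood at 6.91, 8.99 and 14.9 CPM in DMSO and at 7.47, 8.17 and 5.38 CPM in OCA, in the same order. DMSO C was far above all other libraries, and DMSO A was below OCA A and OCA B. The means of 10.3 ± 4.16 and 7.004 ± 1.45 CPM gave a log2 fold change of -0.56 with a standard error of 0.25 (adjusted p = 0.236), and without DMSO C it was -0.18 (0.774). Without OCA B and DMSO A together it was -0.91 and passed (adjusted p = 0.00705). These were its highest OCA and lowest DMSO library, so leaving them out had to widen the gap and the call adds no support.

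The ratio of inhibitor to proteases, Serping1 over the sum of C1ra and C1s1 in CPM per kilobase of exon, was 3.31 ± 0.312 in DMSO and 3.42 ± 0.729 in OCA (SD, n = 3 each). The values overlapped (exact permutation test, two-sided, p = 0.8, where 3 against 3 libraries cannot go below 0.1). Upstream of C1ra, with 1977 bases between them, lies C1rl, which encodes a C1r-like protease. C1rl was at 19.4 ± 1.69 CPM in DMSO and 23.1 ± 1.51 CPM in OCA, with a fitted log2 change of 0.25 (adjusted p = 0.266), with every OCA library above every DMSO library. The ratio of C1ra to C1rl per kilobase was 0.765, 0.824 and 0.719 in DMSO A, B and C and 0.510, 0.522 and 0.359 in OCA A, B and C. These neighbours thus lay on opposite sides of 0, with ratios that did not overlap (exact permutation p = 0.1, the smallest the design allows, and 0.4 after Benjamini-Hochberg adjustment over 4 ratios). The 4 ratios were chosen after the values had been seen.

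C4 is cleaved by C1s and its fragment C4b anchors the convertase to a surface. C4b (NM_009780, chr17:34728381-34743897, minus strand) was at 20.6, 20.8 and 24.7 CPM in DMSO A, B and C and at 12.5, 20.7 and 14.6 CPM in OCA A, B and C. OCA B was level with the lower DMSO libraries, and the other OCA libraries were below all of them. The means were 22.0 ± 2.28 and 15.9 ± 4.25 CPM, with a log2 fold change of -0.47, a standard error of 0.16 and an adjusted p of 0.102 in edgeR's test. Without OCA B the change was -0.70 and passed (adjusted p = 0.00266), and without a filter on low counts it passed at -0.47 (0.0133).

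Factor B, the product of Cfb, takes the place of C2 in the alternative pathway and is cleaved by factor D. Cfb (NM_001142706, chr17:34856374-34862514, minus strand) was at 6.46, 5.35 and 7.42 CPM in DMSO and at 5.10, 6.06 and 6.28 CPM in OCA. The groups overlapped widely, with a log2 fold change of -0.15, a standard error of 0.23 and an adjusted p of 0.769. Its neighbour C2, 87 bases away and the gene of the classical pathway homologue, was at 12.8, 15.8 and 16.5 CPM in DMSO and at 9.01, 12.6 and 8.13 CPM in OCA. All OCA values of C2 were below all DMSO values, at a log2 fold change of -0.60 with a standard error of 0.18 (adjusted p = 0.0599), and the call was made in 6 alternatives, among them the fit without OCA B (-0.81, adjusted p = 0.00533). The ratio of Cfb to C2 per kilobase was 0.415 ± 0.0824 in DMSO and 0.585 ± 0.145 in OCA (exact permutation p = 0.2, adjusted 0.4), and that of C4b to Cfb was 1.77 ± 0.186 and 1.39 ± 0.304 (p = 0.3, adjusted 0.4).

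C3 is the protein on which all pathways converge, and its fragment C3a is bound by the receptor that C3ar1 encodes. C3 (NM_009778, chr17:57203967-57228136, minus strand) had 6, 2 and 0 counts in DMSO A, B and C and 6, 8 and 6 counts in OCA A, B and C. On the CPM scale the 2 groups did not overlap, with OCA at 0.450, 0.613 and 0.471 CPM and DMSO at 0.362, 0.167 and 0 CPM. Summed and scaled for depth, the ratio of OCA to DMSO was 2.81 with an exact 95% interval of 1.18 to 7.37, which covers counting error only. It was 6.99 without DMSO A, which held 6 of the 8 DMSO counts, and 1.82 without DMSO C. When the filter was lifted the gene did not pass the test (adjusted p = 0.646). C3 was thus under 1 CPM in every library.

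C3ar1 (NM_009779, chr6:122847140-122856157, minus strand) had 11, 0 and 7 counts in DMSO and 0, 5 and 1 counts in OCA. Both groups held a library at 0, where the upper 95% limit of the mean is about 3 counts, and the counts overlapped. The ratio of summed counts was 0.374 with an interval of 0.122 to 0.984, and 0.0936 without OCA B, which held 5 of the 6 OCA counts. It was 0.568 without OCA A and 0.599 without DMSO A. No difference passed the test without the filter (adjusted p = 0.670). C3ar1 is best known from myeloid cells, whose markers were also scarce here.

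Decay-accelerating factor, encoded by Cd55, breaks up convertases on the cell's own membrane, and CD59, encoded by Cd59a, blocks the terminal pore. Cd55 (NM_010016, chr1:130439026-130462744, minus strand) had 0, 2 and 1.5 counts in DMSO and 0, 4 and 0 in OCA. With the sums rounded to whole numbers, the ratio was 1.12 with an interval of 0.209 to 6.03. The ratio was 0.699 without DMSO A and 1.70 without OCA A. A difference was not detectable at this depth. Cd59a (NM_001111060, chr2:104095801-104115410, plus strand) was at 6.25, 6.48 and 5.27 CPM in DMSO and at 6.98, 6.02 and 4.47 CPM in OCA. The groups overlapped throughout, at a log2 fold change of -0.05 with a standard error of 0.24 (adjusted p = 0.937), and the sign turned without OCA C (0.11) and without DMSO B (0.01). Per kilobase, the most abundant membrane regulator was Cr1l, which encodes Crry, the rodent regulator of C3 convertases. Cr1l was at 75.7 ± 3.60 CPM in DMSO and 77.7 ± 4.39 CPM in OCA, with a fitted log2 change of 0.04 (adjusted p = 0.820).

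Levels of different genes were compared per kilobase of exon over all 6 libraries. Serping1 led the 9 genes with a mean of 24.1 CPM per kilobase (range 16.6 to 28.5), above the full range of every other. Then came C1ra (4.25), C4b (3.55), Cd59a (3.18), C1s1 (2.98) and Cfb (2.24), and neighbours within this run overlapped in range. Cfb did not overlap C3 (0.0675), which was followed by C3ar1 (0.0614) and Cd55 (0.0378) with overlapping ranges. Serping1 lay above 64.5% of the tested genes by this measure, and the other 5 tested genes lay above between 17% and 25.1%. The most abundant of the 56 complement genes read was Masp1, which encodes lectin pathway proteases, at 216 CPM per kilobase, above 99.2% of tested genes. Masp1 stood at 835 ± 95.9 CPM in DMSO and 871 ± 36.5 CPM in OCA, and did not pass the test (log2 fold change 0.06, adjusted p = 0.750).

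**Figure D2:**
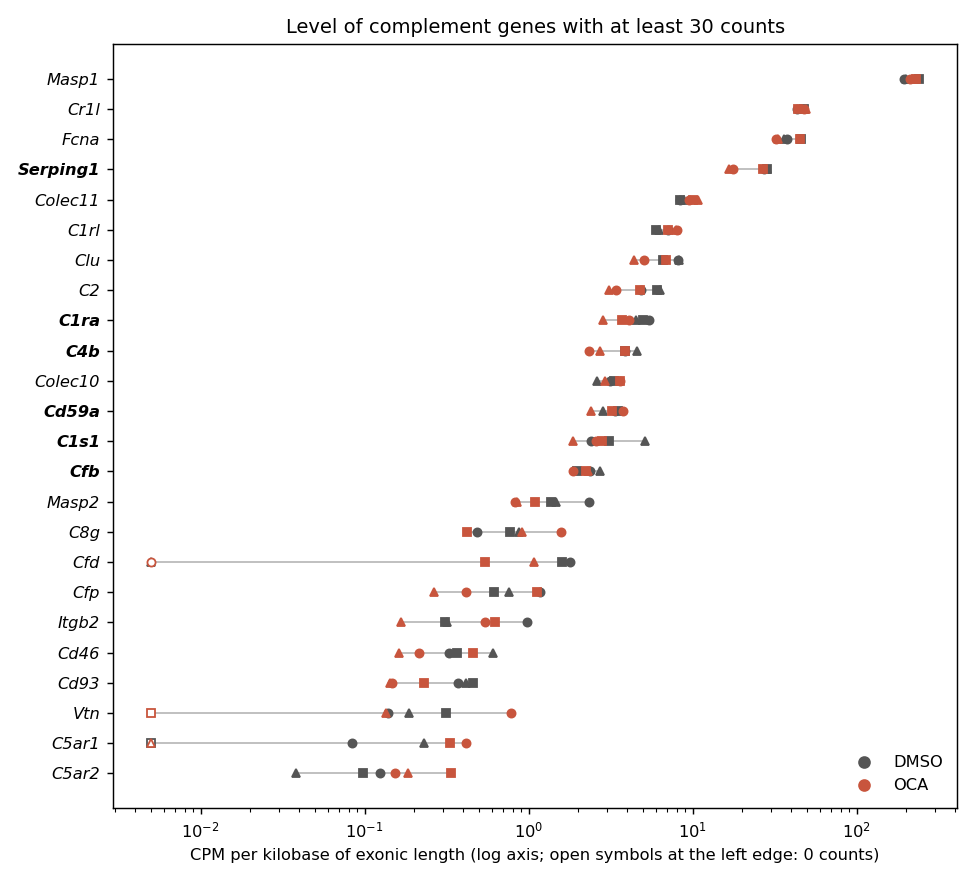
Level of the 24 complement genes with at least 30 counts in all, in CPM per kilobase of exonic length on a log axis, 1 symbol per library (grey DMSO, red OCA; circle, square and triangle for A, B and C). Grey lines span the range and bold names are among the 9 genes. Masp1 leads at 216 and Serping1 is the highest of the 9 at 24.1.

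The other 47 complement genes listed for comparison gave 13 that could be tested, and 29 had under 30 counts. Of the 13, 0 passed edgeR's quasi-likelihood test, against 5.20% of all tested genes. In DESeq2 and limma-voom 0 passed as well, against 4.89% and 5.34% of all tested genes. At an unadjusted p of 0.05, 4 of the 13 would pass, against 19.0% of all genes. Without OCA B 3 of the 13 passed, Clu, C2 and Cd93, in a fit that called 8.73% of all tested genes. In the main fit the median log2 fold change of the 13 was -0.30, with 8 values below 0 and 5 above, against 49.8% of all tested genes below 0.

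Clusterin, an inhibitor of the terminal complex encoded by Clu, was at 13.8 ± 1.67 CPM in DMSO and 9.79 ± 2.32 CPM in OCA, with a fitted log2 change of -0.50 (adjusted p = 0.126). Without OCA B the change of Clu was -0.71 and passed (adjusted p = 0.0183). Cd93, the gene of a membrane glycoprotein first described as a C1q receptor, went from 2.76 ± 0.289 to 1.15 ± 0.332 CPM with groups that did not overlap (log2 fold change -1.24, adjusted p = 0.0733). Without OCA B the change of Cd93 was -1.50 and passed (adjusted p = 0.0497). Itgb2, the beta chain of complement receptors 3 and 4, had a log2 fold change of -0.30 (adjusted p = 0.805), which turned to 0.51 without DMSO A and 0.08 without OCA C and was -0.63 without OCA B. Cd46 was too rare to test, with 37 counts in DMSO and 21 in OCA.

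In the lectin pathway no recognition or protease gene passed with the filter and all 6 libraries. The ficolin gene Fcna was at 51.9 ± 6.91 CPM in DMSO and 48.1 ± 9.26 CPM in OCA, with a fitted log2 change of -0.10 (adjusted p = 0.671). Without OCA B and DMSO A together it was -0.31 and passed (adjusted p = 0.0377). The collectin gene Colec11 was higher in every OCA library, at 14.3 ± 0.900 against 12.1 ± 0.360 CPM (log2 fold change 0.25, adjusted p = 0.388). The protease gene Masp2 was lower in every OCA library, at 2.81 ± 0.454 against 5.25 ± 1.62 CPM (log2 fold change -0.89, adjusted p = 0.0931). It passed without a filter on low counts (-0.90, adjusted p = 0.0302). In the alternative pathway Cfd, the factor D gene, and Cfp, the properdin gene, were rare, with log2 fold changes of -1.14 and -0.50 (adjusted p = 0.515 and 0.655). These values rest on single libraries: Cfd was at -2.14 without OCA C, -1.74 without DMSO C, -0.59 without DMSO A and -0.56 without OCA A. Cfp was at -1.28 without OCA B, -0.28 without OCA A and -0.17 without OCA C or DMSO A, and neither gene passed in any of these. Of the terminal pathway, C8g had 25 counts in DMSO and 31 in OCA, and the C5 gene Hc had 3 and 5.5. Of C1q, the first component, C1qa had 7 and 5 counts.

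**Figure D3:**
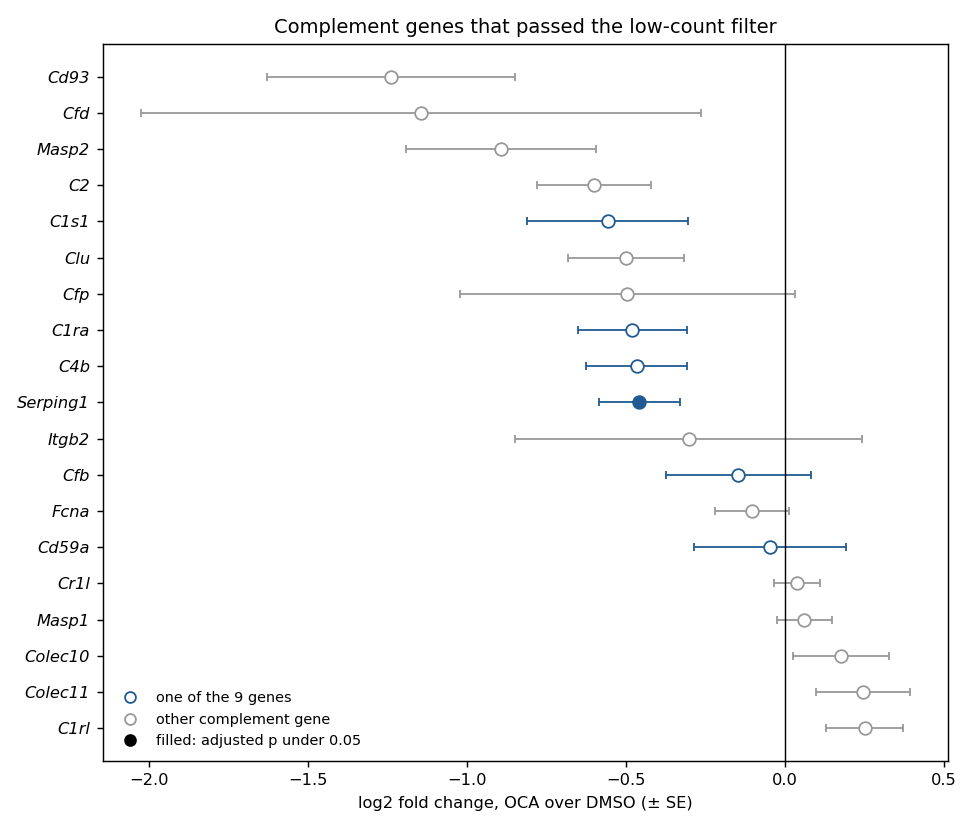
Log2 fold change of OCA over DMSO with its standard error for 19 complement genes that could be tested, ordered by size (blue, the 9 genes; grey, other complement genes; filled, adjusted p under 0.05). Of the 19 points, 14 lie below 0, and the filled one is Serping1 at -0.46.

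Across these 56 complement genes 19 were tested, 1 fell, 0 rose, 14 had a log2 fold change below 0 and the median was -0.46. Of all tested genes 3.03% fell, 2.18% rose and 49.8% lay below 0, with a median of 0.00. Groups did not overlap in 7 of the 19, with OCA lower in 5 and higher in 2 (11.3% and 11.6% of all tested genes). OCA B was the highest OCA library in 12 of these 19 genes, against 33.3% of all tested genes, while DMSO A was the highest DMSO library in 6. The level of C2 in OCA A, B and C was 59.9%, 83.8% and 54.0% of its DMSO mean, and that of Clu was 65.5%, 89.7% and 57.5%. C1ra differed from this order, at 82.3%, 74.8% and 57.6%. Summed over the 9 genes the libraries held 105 to 117 CPM in DMSO and 69.2 to 101 CPM in OCA, of which Serping1 made up the largest share. Without Serping1 the sums were 55.6 to 65.2 and 39.1 to 52.4 CPM. The other 47 complement genes summed to 986 to 1171 CPM in DMSO and 1040 to 1131 CPM in OCA, so the groups overlapped. They also overlapped without Masp1, at 213 to 226 CPM in DMSO and 203 to 224 CPM in OCA.

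**Figure D4:**
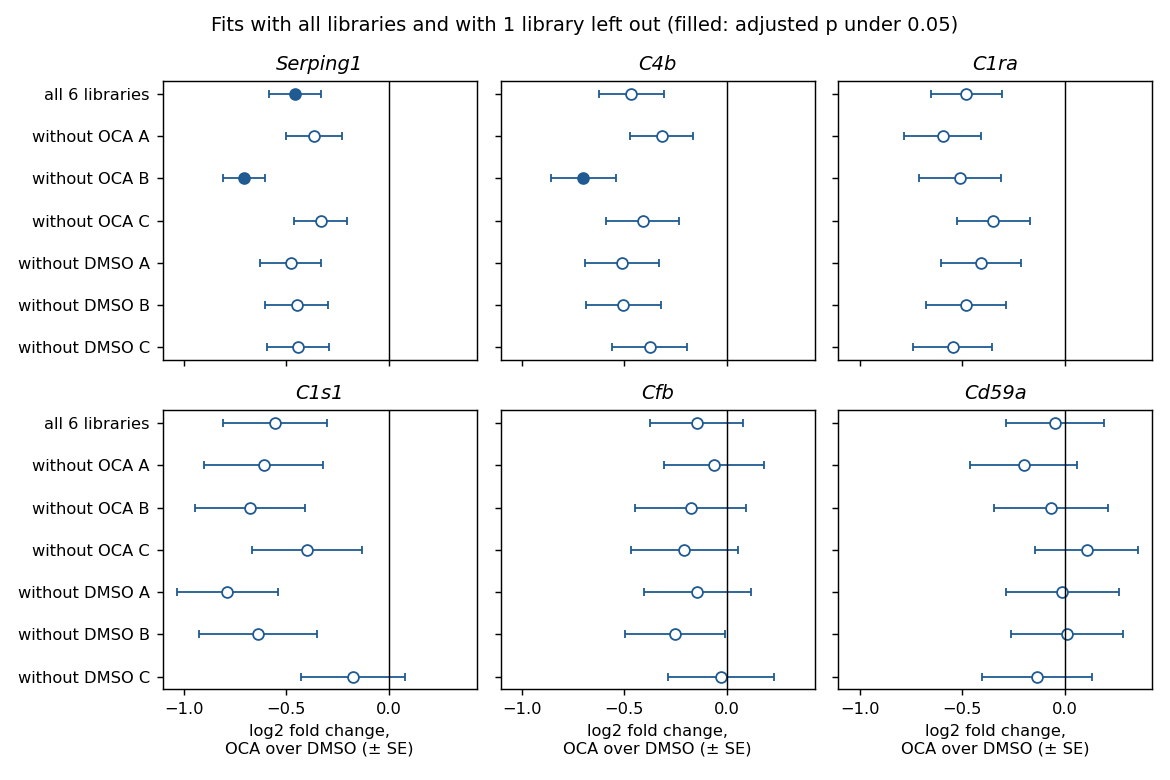
Log2 fold change of OCA over DMSO with its standard error for the 6 tested genes, from all 6 libraries and with each library left out in turn (filled, adjusted p under 0.05). Serping1 passes with all libraries and without OCA B, C4b passes without OCA B, and Cd59a crosses 0 without OCA C and without DMSO B.

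The genes whose libraries followed those of Serping1 most closely were sought among 10735 genes with a mean of at least 5 CPM, by the distance between centred log2 CPM values over the 6 libraries. Psap, which encodes the lysosomal precursor of the saposins, was nearest (distance 0.145, Pearson's r = 0.98, log2 fold change -0.46, adjusted p = 0.0170). Nucb1, a calcium-binding protein of the Golgi, came next (distance 0.15, r = 0.98, log2 fold change -0.54, adjusted p = 0.00382), and then Proser1 (0.154, r = 0.98, -0.40, 0.164). These are descriptions over 6 libraries that share the treatment and their depth.

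Cytokines of the acute phase and interferon-gamma induce complement genes in many cells, so 2 lists of such genes were read from the same fit. Of 9 acute phase and C/EBP genes 5 were tested and 0 passed. At an unadjusted p under 0.05 there were 3 of the 5, against 19.0% of all tested genes: Socs3 (log2 fold change 0.24, adjusted p = 0.169), Osmr (-0.19, 0.190) and Stat3 (-0.14, 0.263). Of 8 interferon-gamma genes all 8 were tested, 2 rose and 0 fell, against 2.18% and 3.03% of all tested genes. The GTPase gene Gbp3 rose from 23.4 ± 0.576 to 30.8 ± 2.41 CPM (log2 fold change 0.39, adjusted p = 0.0338) and the immunoproteasome gene Psmb8 from 58.5 ± 5.42 to 72.1 ± 4.40 CPM (0.30, 0.0368). The receptor gene Ifngr1 had a log2 fold change of -0.22 (adjusted p = 0.0840). The adjusted p-values are from edgeR's quasi-likelihood test over all genes.

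Several of the genes have near copies, and the sources used here do not give how the authors' counting treated reads that map to both. Of all runs of 50 bases in the transcript, C4b shares 35.2% with other genes, all with C4a, C1ra 50.8%, mostly with C1rb, C1s1 39.5%, with C1s2 and an antisense gene, and Cfb 80.1% with the readthrough-type model Gm20547. Cd55 shares 15.5% and Cd59a 3.98%, while Serping1, C3 and C3ar1 share 0. The levels of C4b, C1ra, C1s1, Cfb and Cd55 are therefore uncertain in this respect. The copies themselves held few counts: C4a 22 in DMSO and 7.5 in OCA, C1rb 0 and 0.5, C1s2 0.5 and 0, Cd59b 9 and 4.5, and Cd55b 2.5 and 0. C1s1 overlaps the antisense gene Gm16567 by 576 exonic bases and Cd55 overlaps Gm16083 by 102, and the strand setting of the counts is unknown.

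Genes that fell had long transcripts, with a median of 5987.5 bases against 2933 for all tested genes. Serping1 has 1810 bases, and the median log2 fold change of the 1551 tested genes of similar length was 0.05. For C4b, with 5350 bases, it was -0.07, and for C1ra 0.01.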

How the data were processed

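RNA-seq libraries of 3 OCA and 3 DMSO samples were compared, with groups taken from the sample labels and columns matched by title. Per the submitters' processing notes, the tools STAR and HOMER and the build mm10 were used. The authors deposited exon counts per gene that step by 0.5 and were taken for expected counts, with between 26.5% and 29.8% of the values of a library not whole. The sources used here do not give how the steps arose, tool versions, the strand setting or the handling of multiply mapped reads. Values were rounded to whole numbers (ties to even) for tests and 0 count columns were left out.

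edgeR 4.0.16 in R 4.3.3 was used with filterByExpr, TMM scaling and the two-sided quasi-likelihood test, with Benjamini-Hochberg adjustment over 12687 genes and a threshold of 0.05. The common coefficient of variation that edgeR fitted between replicates was 7.98%. CPM came from unrounded counts on TMM-scaled library sizes. Ratios of summed counts were formed from sums rounded to whole numbers and carry exact 95% intervals for counting error only. The fit was first tested on simulated data. Replicate libraries were further apart than sampling noise (chi-square per degree of freedom 4.40 to 8.00). Alternatives were DESeq2 1.42.0, voom from limma 3.58.1, 3 scalings, 2 filters, a replicate block, robust estimation, no rounding, offsets for a length trend, and left-out libraries.

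The 9 genes and all lists were chosen with earlier results of these data known. The 9 genes are always named. Of other complement genes, those that passed and up to 2 per role by mean CPM are named, with the FXR check, up to 3 context genes per role by p, the 3 nearest genes and, of each marker list, the genes at 0 and the most abundant. Some genes of these lists and a motif are not reported here and are left out of the counts of lists. Near copies, Masp2, Colec11, C1qa, Hc, Clec4f, Krt19, Reln and Lhx2 were named after their values were seen. Promoter windows and names are RefSeq's, and shared runs of bases and exon overlaps came from GENCODE transcripts of mm10.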

Additional observations from a re-analysis of the deposited data

How the results depend on the processing

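Over 18 alternatives, the log2 fold change of Serping1 ranged from -0.73 to -0.33 (adjusted p 1.44e-08 to 0.209), that of C4b from -0.75 to -0.32, of C1ra from -0.59 to -0.35, of C1s1 from -0.91 to -0.18, of Cfb from -0.25 to -0.03 and of Cd59a from -0.20 to 0.11. Each of the 6 kept its direction in all of them, except Cd59a, which was at 0.11 without OCA C and 0.01 without DMSO B. Of the 6, the number called was 2 without a filter (C4b, Serping1), 0 under robust estimation and 3 without OCA B and DMSO A (C4b, C1s1, Serping1). With each library left out in turn it was 0 to 2, with 2 without OCA B and 0 in the other 5 fits. Calls moved over all tested genes too. Their share was 5.55% without a filter, 5.01% under robust estimation, 4.77% under length trend offsets and 7.41% without OCA B and DMSO A. It was 8.73% without OCA B and 2.06% to 3.56% with any other single library left out, against 5.20% in the main fit. Of the other complement genes, 3 were called without a filter (Clu, Masp2, C2), 1 (C2) under robust estimation and under length trend offsets, 2 without OCA B and DMSO A (Fcna, C2), and 0 to 3 with a library left out, 3 being without OCA B. Genes that fell numbered 703 without a filter, 227 under length trend offsets, 605 without OCA B and DMSO A, and 104 to 758 with a library left out, with 758 without OCA B. Genes that rose numbered 161 to 363 with a library left out. OCA B was the highest OCA library of C4b, C1s1, Serping1, Fcna, C2, Clu and Cd93. Leaving it out therefore had to lower their OCA means, and calls made that way add no separate support. Other signs turned for Fcna (0.0054 without DMSO B, and -0.27 to 0.0054 with a library left out), Masp1 (-0.025 without OCA B and DMSO A), Cr1l (-0.00059 without OCA C, -0.0011 without DMSO A, up to 0.082 without OCA B) and Itgb2 (-0.63 to 0.51 with a library left out, with 0.08 when OCA C and 0.51 when DMSO A was, and 0.18 without OCA B and DMSO A). The cause was not tested.

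Whether the replicate letters pair the samples is not known. Deviations from group means correlated at 0.00051 for A, -0.04 for B and 0.05 for C. Between unlike letters they correlated at -0.080 to 0.080. With 3 libraries per group these values cannot decide it. With the letter as a replicate block 814 genes were called against 660, 1 of the 6 genes (Serping1, adjusted p = 0.00780) and 1 other complement gene (C2). Depth limits C3, C3ar1 and Cd55, for which the ratio of summed counts of C3 ranged from 1.82 (without DMSO C) to 6.99 (without DMSO A) over 8 alternatives.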
